A study of Mus musculus with 6 samples.

Results

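The sodium-potassium ATPase is described here through its 4 beta subunit genes, Atp1b1, Atp1b2, Atp1b3 and Atp1b4, and through Fxyd1, in skeletal muscle lacking the transcription factor TFEB. The genes were chosen with the TFEB KO against WT values of these arrays already known, so their differences between genotypes are given as a description, with no test. They are read by 10 of the 22626 probe sets measured and make up 5 of the 12393 genes with a probe set of their own. A probe set is a group of short probes on the array that reads 1 transcript region. Atp1b1 has 5 probe sets, Atp1b2 has 2 and the other 3 genes have 1 each, so that no member was without a probe set.

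Affymetrix arrays were hybridized with muscle RNA of 3 TFEB KO and 3 WT mice, 1 array each, all of the C57BL/6 strain and 1 month old. In the TFEB KO mice a floxed Tcfeb allele (the older symbol of Tfeb) was deleted with a Cre recombinase driven by the MLC1f promoter. This promoter is active in skeletal muscle fibers, so the other cells of the tissue keep the gene. The sources used here do not name the muscle, nor do they say whether the WT mice carried the floxed allele or Cre. Values are log2 RMA values as deposited, so that a difference of 1 is a 2-fold difference, and they are compared only within a probe set, because the brightness of different probe sets depends on their probes.

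Tfeb read 7.10, 7.23 and 7.04 in TFEB KO arrays, against 8.61, 8.55 and 8.96 in WT arrays (log2 change -1.58, standard error 0.13, adjusted p = 0.0079 from limma across all probe sets). Arrays correlated at 0.992 to 0.9967 within a genotype and at 0.9889 to 0.9934 between genotypes. All 12 defining genes of skeletal muscle fibers, among them Ckm, Acta1 and Mylpf, were measured, with a mean level of 14.44 to 14.53 in TFEB KO arrays and 14.44 to 14.49 in WT arrays. The highest value in the data is 14.93, so these markers identify the tissue but sit close to the top of the scale. In whole muscle, fewer cells of a type and less RNA per cell cannot be told apart.

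The sodium-potassium ATPase moves sodium out of the cell and potassium in at the expense of ATP, and in working muscle it restores the ion gradients that each action potential runs down. Its catalytic alpha subunit needs a beta subunit, a glycoprotein that carries the pump to the plasma membrane and tunes its affinity for potassium. In rat muscle, the beta1 protein (Atp1b1) is richer in oxidative and the beta2 protein (Atp1b2) in fast glycolytic muscle. Fxyd1, or phospholemman, lowers the sodium affinity of the pump until it is phosphorylated. Atp1b4 stands apart from this family. In placental mammals its protein, BetaM, is no longer a pump subunit and resides in the inner nuclear membrane of muscle cells, most abundantly around birth.

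The upstream sequences of the members are shown because TFEB binds DNA at the CLEAR element, whose core is CACGTG, a kind of the wider E-box CANNTG that myogenic factors also bind. Atp1b4 lies on chromosome X (chrX:38316122-38336784, GRCm38.p6) and Atp1b1 on chromosome 1 (chr1:164437099-164458355). The 250 bases before the RefSeq start of each are printed 5′ to 3′ on the strand of the gene, with CANNTG in capitals. The window of Atp1b4 is chrX:38315872-38316121 on the plus strand and that of Atp1b1 is chr1:164458356-164458605 on the minus strand.
Atp1b4: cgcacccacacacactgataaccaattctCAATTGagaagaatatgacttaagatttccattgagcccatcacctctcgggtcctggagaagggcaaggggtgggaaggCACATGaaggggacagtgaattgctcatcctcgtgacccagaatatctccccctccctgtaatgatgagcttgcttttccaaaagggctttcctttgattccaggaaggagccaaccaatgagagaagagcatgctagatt
Atp1b1: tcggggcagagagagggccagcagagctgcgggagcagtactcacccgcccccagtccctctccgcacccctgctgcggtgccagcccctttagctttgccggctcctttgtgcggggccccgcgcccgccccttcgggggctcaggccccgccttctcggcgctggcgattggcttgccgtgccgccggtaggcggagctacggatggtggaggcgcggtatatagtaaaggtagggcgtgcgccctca

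In the Atp1b4 window CANNTG stood at 2 places, starting 221 and 141 bases before the start, and neither was CACGTG. The Atp1b1 window held no CANNTG. The Atp1b4 window held CCAAT 2 times, the Atp1b1 window 1 time, and both strands were searched. The windows also differed in composition, with 48.4% G and C for Atp1b4 and 70.4% for Atp1b1. RefSeq gives Atp1b3 (chr9:96332655-96364431, minus strand) a pair of starts, and CACGTG occurred 221 bases before 1 of them, as shown here in capitals at chr9:96363922-96363945.
Atp1b3: agcggggcaCACGTGctgccggtt

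Of the 32851 windows of this length in the RefSeq table of mouse genes, 6.02% held CACGTG, 66.2% held CANNTG and 33.8% held CCAAT. The Fxyd1 window, chr7:31054854-31055103 on the minus strand, held none of these. It precedes a start that RefSeq places inside the span of the gene, so the bases before the outer end of Fxyd1 were not searched. The exact run TATAAA, a form of the TATA box, was in none of the windows of Atp1b1, Atp1b3, Atp1b4 and Fxyd1, against 12.4% of all windows. Other forms of the TATA box were not searched. A match is a run of letters in this window and was not measured as a binding site.

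Atp1b4 was the member with the lowest change. Its probe set, 1422908_at, read 5.44, 5.85 and 5.88 in TFEB KO arrays, against 6.30, 6.60 and 6.16 in WT arrays. All 3 TFEB KO arrays lay below all 3 WT arrays, and 0.28 log2 units separated the highest TFEB KO array from the lowest WT array. The means were 5.72 ± 0.25 in TFEB KO and 6.36 ± 0.22 in WT muscle (SD, n = 3 mice each), a log2 change of -0.63 (standard error 0.16) or 1.55-fold lower in TFEB KO muscle. TFEB KO mouse 1 was the lowest array, and without it the change was -0.49. Of all probe sets, 0.924% had a lower change, a rank drawn from the same values on which the members were chosen. The probe set is of middle brightness, with a mean over the 6 arrays at the 43.5th percentile of all probe set means. The brightest probe sets of the other members lay between the 87.0th and the 98.5th percentile.

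**Figure D1:**
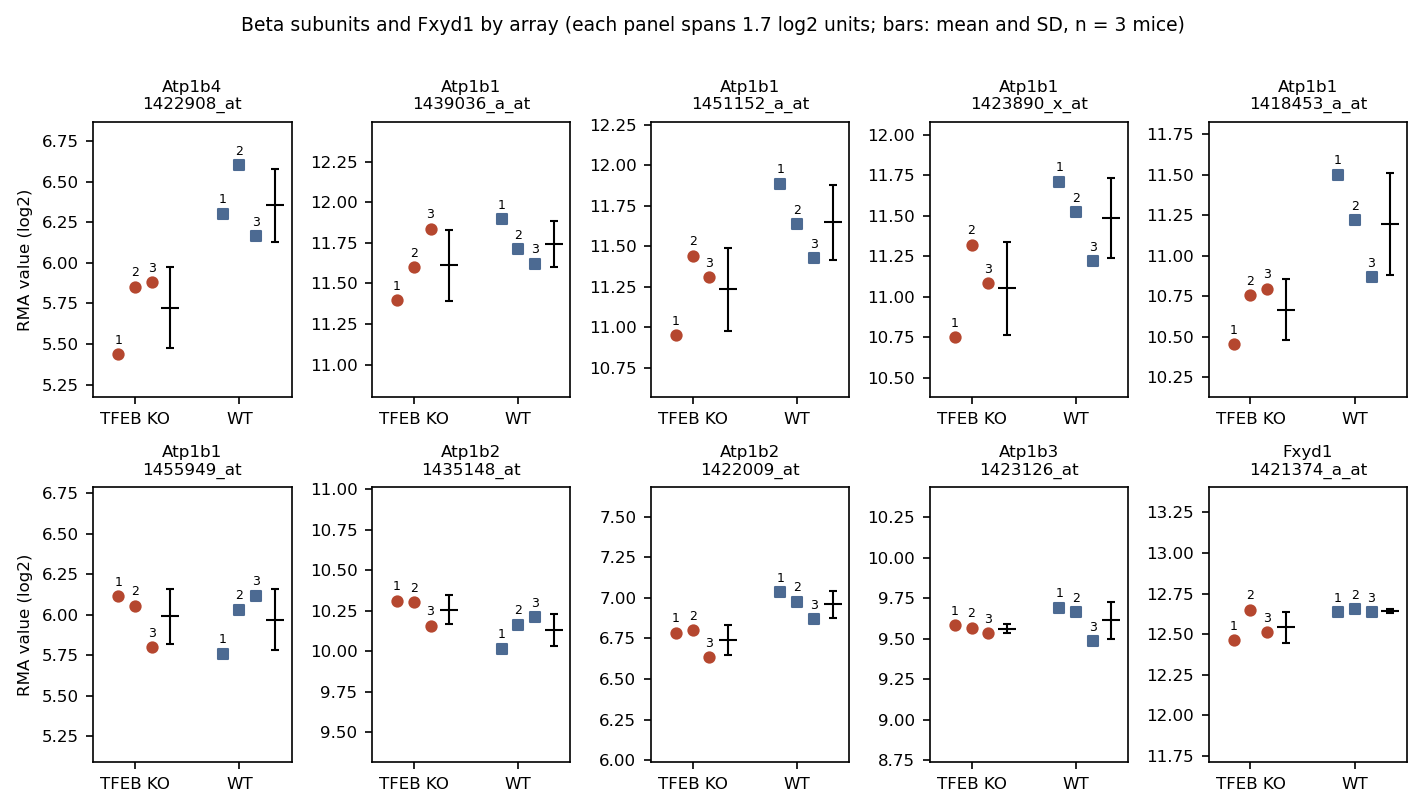
Log2 RMA value (y axis) of each of the 10 probe sets in the 3 TFEB KO arrays (red circles) and the 3 WT arrays (blue squares), numbered by replicate, with the mean and SD of each genotype (n = 3 mice). Each panel spans the same number of log2 units, and only Atp1b4, Atp1b1 1418453_a_at and Atp1b2 1422009_at have genotypes that do not overlap.

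Atp1b1, the beta subunit found most widely in the body, gave different answers by probe set. Its brightest probe set, 1439036_a_at, read 11.40, 11.60 and 11.84 in TFEB KO arrays, against 11.90, 11.71 and 11.62 in WT arrays. The genotypes overlapped, and the log2 change was -0.13 (standard error 0.13). Probe set 1418453_a_at read 10.45, 10.75 and 10.79 in TFEB KO arrays, against 11.50, 11.22 and 10.87 in WT arrays. Here all TFEB KO arrays lay below all WT arrays, though by only 0.073 log2 units, and the change was -0.53 (standard error 0.17), or 1.44-fold lower in TFEB KO muscle. Its means were 10.67 ± 0.19 in TFEB KO and 11.20 ± 0.32 in WT muscle (SD, n = 3 mice each).

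Probe sets 1451152_a_at and 1423890_x_at stood between these, at -0.42 (standard error 0.16) and -0.43 (standard error 0.17). The first read 10.95, 11.44 and 11.31 in TFEB KO arrays, against 11.89, 11.63 and 11.43 in WT arrays. The second read 10.75, 11.32 and 11.08 in TFEB KO arrays, against 11.71, 11.52 and 11.22 in WT arrays. In both, TFEB KO mouse 2 lay above WT mouse 3, so the genotypes overlapped. The name 1423890_x_at marks probes that can also bind other sequences, and names ending in _a_at mark probes shared by transcripts of the same gene. The remaining probe set, 1455949_at, was far dimmer than the others of its gene. At the 42.8th percentile it was about as bright as the Atp1b4 probe set. It read 6.11, 6.05 and 5.80 in TFEB KO arrays, against 5.76, 6.03 and 6.12 in WT arrays, with a change of 0.02 (standard error 0.13). Thus 4 of the 5 Atp1b1 probe sets were lower in TFEB KO muscle, by 0.13 to 0.53 log2 units, and in 1 of these the genotypes did not overlap. These sizes depend on single arrays. Without TFEB KO mouse 1 the change was -0.026 for the brightest probe set, -0.28 for 1423890_x_at and -0.27 for 1451152_a_at, and the brightest probe set stood at -0.25 without TFEB KO mouse 3 and at -0.056 without WT mouse 1.

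Atp1b2, first described in glia as the adhesion molecule AMOG, lies on chromosome 11 (chr11:69599728-69605978), and its 2 probe sets differed in sign. The brighter, 1435148_at, read 10.31, 10.30 and 10.16 in TFEB KO arrays, against 10.02, 10.17 and 10.21 in WT arrays, a log2 change of 0.13 (standard error 0.097) with overlapping genotypes. The dimmer, 1422009_at, read 6.79, 6.80 and 6.64 in TFEB KO arrays, against 7.04, 6.98 and 6.87 in WT arrays. This change was -0.22 (standard error 0.095), and the genotypes were 0.070 log2 units apart. No single direction can therefore be given for Atp1b2, and the mean of both probe sets moved by -0.046.

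Atp1b3 and Fxyd1, with 1 probe set each, differed little between genotypes. Atp1b3, a broadly expressed beta subunit, read 9.58, 9.57 and 9.53 in TFEB KO arrays, against 9.69, 9.67 and 9.48 in WT arrays, a log2 change of -0.05 (standard error 0.094). Fxyd1 (chr7:31051678-31055873) read 12.46, 12.65 and 12.51 in TFEB KO arrays, against 12.64, 12.65 and 12.63 in WT arrays, a change of -0.099 (standard error 0.090). In both genes the genotypes overlapped and the difference was close to its standard error from limma or below it. The arrays of Fxyd1 themselves varied less in WT (SD 0.011) than in TFEB KO muscle (SD 0.097).

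Across the members, 8 of the 10 probe sets were lower and 2 were higher in TFEB KO muscle, where 54.4% of all probe sets were lower. The genotypes did not overlap in 3 of the 10, all lower, against 13.3% of all probe sets that were lower without overlap and 9.77% that were higher without overlap. Limma called 0 of the 10 at an adjusted p under 0.05, against 1.60% of all probe sets (0.844% lower and 0.751% higher). At an unadjusted p under 0.05, 5 of the 10 were lower and 0 were higher, against 9.40% of all probe sets lower and 7.81% higher. Since the members were chosen on this contrast, nothing is read from these counts.

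Setting Atp1b4 against the other beta subunits asks whether the nuclear member of the family differed from the pump subunits. In each array the mean of the brightest Atp1b1, Atp1b2 and Atp1b3 probe sets was subtracted from Atp1b4, and the mean of the WT arrays was set to 0. The resulting values were -0.85, -0.50 and -0.49 in TFEB KO arrays, against -0.092, 0.23 and -0.14 in WT arrays. All 3 TFEB KO arrays were below all 3 WT arrays, and the difference between the changes was -0.61 (standard error 0.17). The mean of the 3 pump subunits moved by -0.019. It joins changes of opposite sign, -0.13 for Atp1b1, 0.13 for Atp1b2 and -0.05 for Atp1b3.

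**Figure D2:**
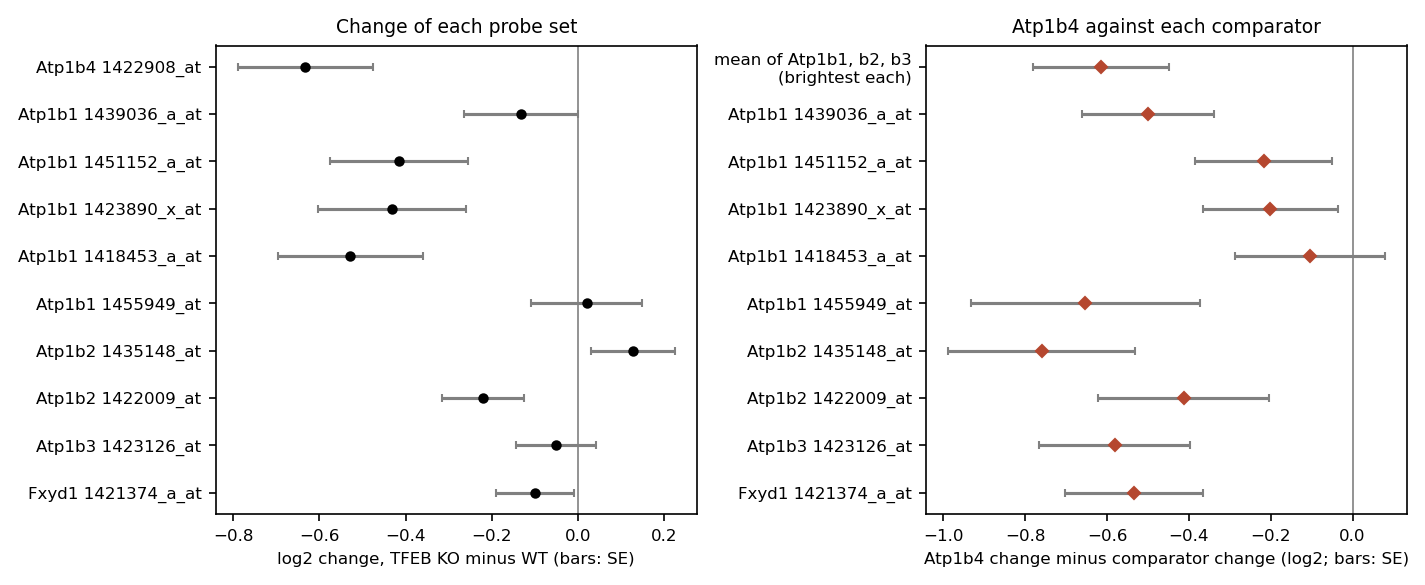
Left, log2 change of each probe set, TFEB KO minus WT, with its standard error from limma (n = 3 mice per genotype). Right, the Atp1b4 change minus that of each comparator, with a standard error from the SDs of both genotypes. The value is -0.61 against the mean of the pump beta subunits but -0.10 against Atp1b1 1418453_a_at.

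The size of this difference depended on which probe set stood for Atp1b1. Against the brightest Atp1b1 probe set the Atp1b4 change was lower by 0.50 log2 units (standard error 0.16), with no overlap between genotypes. Against 1418453_a_at it was lower by only 0.10 (standard error 0.18), and against 1423890_x_at and 1451152_a_at by 0.20 (standard error 0.16) and 0.22 (standard error 0.17), each with overlapping genotypes. Against 1455949_at it was lower by 0.65 (standard error 0.28), again with overlap. Against Atp1b3 it was lower by 0.58 (standard error 0.18), and against Fxyd1 by 0.53 (standard error 0.17). Against Atp1b2 it was lower by 0.76 (standard error 0.23) on the brighter and by 0.41 (standard error 0.21) on the dimmer probe set. In these 4 comparisons the genotypes did not overlap.

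Slow fiber markers varied between these arrays along with several of the pump genes. Of 10 slow fiber markers, 9 were measured, and all 9 lay below 0 in TFEB KO against WT muscle (53.4% of all genes did). Limma called 0 of the 9, where 0.702% of all genes were called lower and 0.871% higher. Of these markers, 4 were lower and 0 higher at an unadjusted p under 0.05, against 9.40% and 7.81% of all probe sets. Myh7, the slow myosin heavy chain, had a log2 change of -1.40 (standard error 0.31, adjusted p = 0.069), and the ventricular and slow myosin light chain Myl3 of -0.90 (standard error 0.23, adjusted p = 0.098). Relative to the WT mean, the mean of the 9 markers was -0.87, -0.48 and -0.50 in TFEB KO arrays, against 0.27, 0.43 and -0.71 in WT arrays. WT mouse 3 was thus as low as the TFEB KO mice, and it was also the WT mouse with the lowest Atp1b4 and the lowest value of 4 Atp1b1 probe sets. Over the 6 arrays the slow fiber mean correlated with Atp1b4 at r = 0.85, with Atp1b3 at 0.83 and with Fxyd1 at 0.60. The Atp1b1 probe sets gave 0.90 (1418453_a_at), 0.87 (1423890_x_at), 0.84 (1451152_a_at), 0.66 (1439036_a_at) and -0.47 (1455949_at). The Atp1b2 probe sets gave opposite signs, -0.72 for the brighter and 0.73 for the dimmer. These are descriptions over 6 arrays that share the difference between genotypes. The part of fiber composition in the values of the pump genes was not tested. Without WT mouse 3 the Atp1b4 change was -0.73, and that of Atp1b1 1418453_a_at was -0.69.

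**Figure D3:**
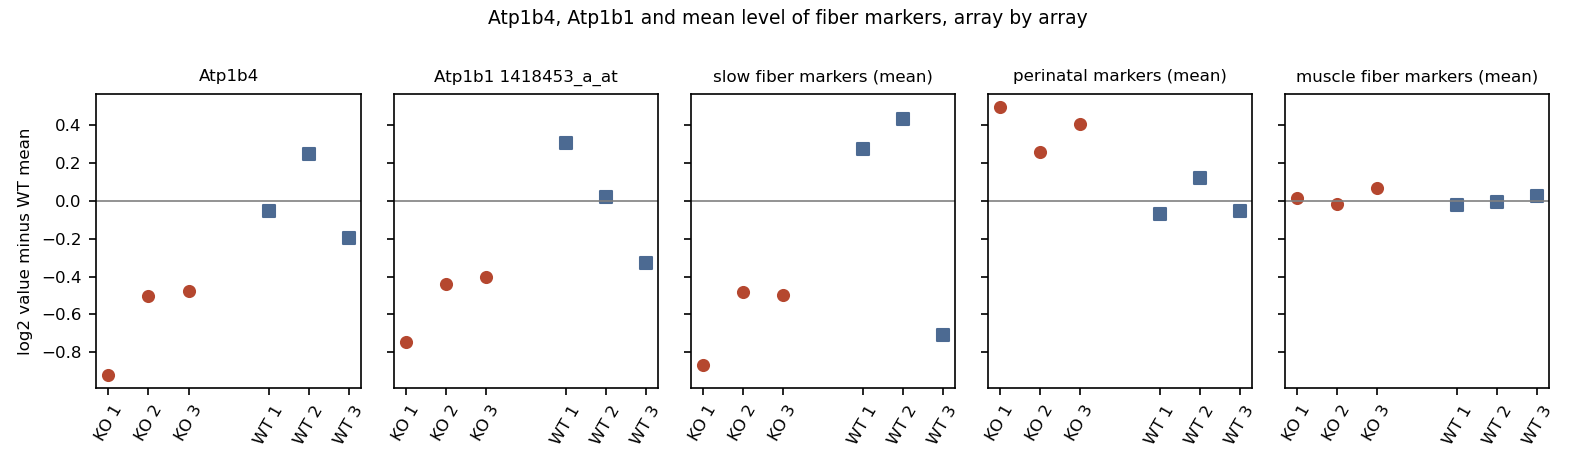
Log2 value minus the WT mean (y axis) of Atp1b4, Atp1b1 1418453_a_at and the mean of 3 marker lists in each of the 3 TFEB KO arrays (red circles) and the 3 WT arrays (blue squares). WT mouse 3 has a slow fiber mean of -0.71, within the TFEB KO range. The muscle fiber markers stay close to 0 in all arrays, but they sit close to the top of the scale.

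Genes of embryonic and perinatal fibers, the stage at which Atp1b4 is known to be most abundant, were higher in TFEB KO muscle where they passed the test. Myog, a transcription factor of differentiating muscle, rose by 0.87 (standard error 0.13, adjusted p = 0.025 from limma), and Myh3, the embryonic myosin heavy chain, rose by 1.18 (standard error 0.22, adjusted p = 0.048). These were 2 of 10 measured genes past the test, with a list median of 0.35, against -0.014 over all genes, of which 0.871% were called higher and 0.702% lower. Myh3 also missed the threshold with array weights (adjusted p = 0.058). With 1 array left out, Myog kept an adjusted p under 0.05 only without TFEB KO mouse 1 (0.055 to 0.089 otherwise) and Myh3 only without WT mouse 2 (0.069 to 0.18 otherwise). The list mean was 7.51 to 7.75 in TFEB KO arrays and 7.18 to 7.37 in WT arrays. The markers of other cells of muscle tissue also differed. Macrophage markers had a mean of 7.96 to 8.59 in TFEB KO arrays and 6.77 to 7.46 in WT arrays, with 5 of 12 called higher. Endothelial markers had a mean of 7.14 to 7.26 in TFEB KO arrays and 7.74 to 7.84 in WT arrays, with 5 of 10 called lower. Smooth muscle and pericyte markers had a mean of 8.07 to 8.13 in TFEB KO arrays and 8.38 to 8.52 in WT arrays, with 2 of 10 called lower. Schwann cell markers had a mean of 6.96 to 7.20 in TFEB KO arrays and 7.48 to 7.58 in WT arrays, with 1 of 7 called lower. Fibroblast and tendon markers overlapped, at 9.53 to 10.03 in TFEB KO arrays and 9.99 to 10.07 in WT arrays, with 3 of 8 called lower. This list went both ways, with 4 lower and 2 higher at an unadjusted p under 0.05, against 9.40% and 7.81% of all probe sets. No list had its defining markers at 0, since RMA values have no 0. The part of these cells in the values of the pump genes was not tested.

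Limma called 0 genes, on their brightest probe set, in the lists of other FXYD proteins, proton-potassium pump genes, NKAIN proteins and kinases, phosphatases and ligases. Of all genes, it called 0.702% lower and 0.871% higher. All 6 other FXYD proteins, relatives of Fxyd1 that also regulate ion transport, were measured, with a list median of 0.0037. Fxyd6 read 7.75, 8.25 and 8.26 in TFEB KO arrays, against 9.01, 8.66 and 8.98 in WT arrays, a log2 change of -0.80 (standard error 0.16, adjusted p = 0.055). Its genotypes did not overlap, and it lay just outside the threshold, which it passed in 4 of 9 alternatives that use all arrays (adjusted p = 0.038 to 0.047 in those 4). Fxyd3 was further from the threshold (-0.36, adjusted p = 0.14). The 3 proton-potassium pump genes, the closest relatives of the sodium pump, lay between -0.052 and 0.037, with Atp4a at -0.052 and Atp4b at -0.024. Of the NKAIN proteins, which bind the beta1 subunit, 2 of 4 were measured. The brightest Nkain1 probe set lay at -0.18 (adjusted p = 0.43) and a dimmer one, 1419652_s_at, at -0.48 (adjusted p = 0.048), while Nkain4 lay at -0.019. The 15 kinases, phosphatases and ligases that act on the pump or on phospholemman had a median of -0.018. Ppp1ca, the catalytic subunit of protein phosphatase 1 (-0.42, adjusted p = 0.051), and Ppp1r1a, an inhibitor of this phosphatase (-0.41, adjusted p = 0.060), came closest. Ppp1ca passed in 5 of the 9 alternatives (adjusted p = 0.023 to 0.045 in those 5) and Ppp1r1a in 3 of them (0.040 to 0.044), so both calls turn on the processing. At an unadjusted p under 0.05, 2 FXYD genes, 0 proton pump genes, 0 NKAIN genes and 3 genes of the kinase list were lower. In the same order, 1, 0, 0 and 3 were higher. Of all probe sets, 9.40% were lower and 7.81% higher at this unadjusted p.

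Channels and transporters that share the sodium and potassium gradients were measured for 20 of 25 genes, and 14 of the 20 lay below 0, as did 53.4% of all genes. Their median was -0.26, against -0.014 over all genes. On the brightest probe sets, limma called 2 lower and 1 higher, where 0.702% of all genes were called lower and 0.871% higher. The brightest Slc6a8 probe set lay at -0.31 (adjusted p = 0.16) and a dimmer one, 1448596_at, at -0.58 (adjusted p = 0.028). At an unadjusted p under 0.05, 9 of the 20 were lower and 2 higher, against 9.40% and 7.81% of all probe sets. The list mean was 7.46 to 7.56 in TFEB KO arrays and 7.62 to 7.66 in WT arrays. Kcnc1, the fast potassium channel Kv3.1, read 7.85, 7.78 and 7.57 in TFEB KO arrays, against 8.41, 8.25 and 8.44 in WT arrays, and fell by 0.64 on the log2 scale (standard error 0.11, adjusted p = 0.036). Slc8a3, the sodium-calcium exchanger NCX3 that uses the sodium gradient to expel calcium, read 5.63, 5.41 and 5.41 in TFEB KO arrays, against 5.98, 6.03 and 6.06 in WT arrays, and fell by 0.54 (standard error 0.098, adjusted p = 0.043). Slc38a2, a transporter that takes up neutral amino acids with sodium, moved the other way. It read 10.86, 10.49 and 10.75 in TFEB KO arrays, against 9.86, 9.89 and 9.92 in WT arrays, and rose by 0.81 (standard error 0.11, adjusted p = 0.021).

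**Figure D4:**
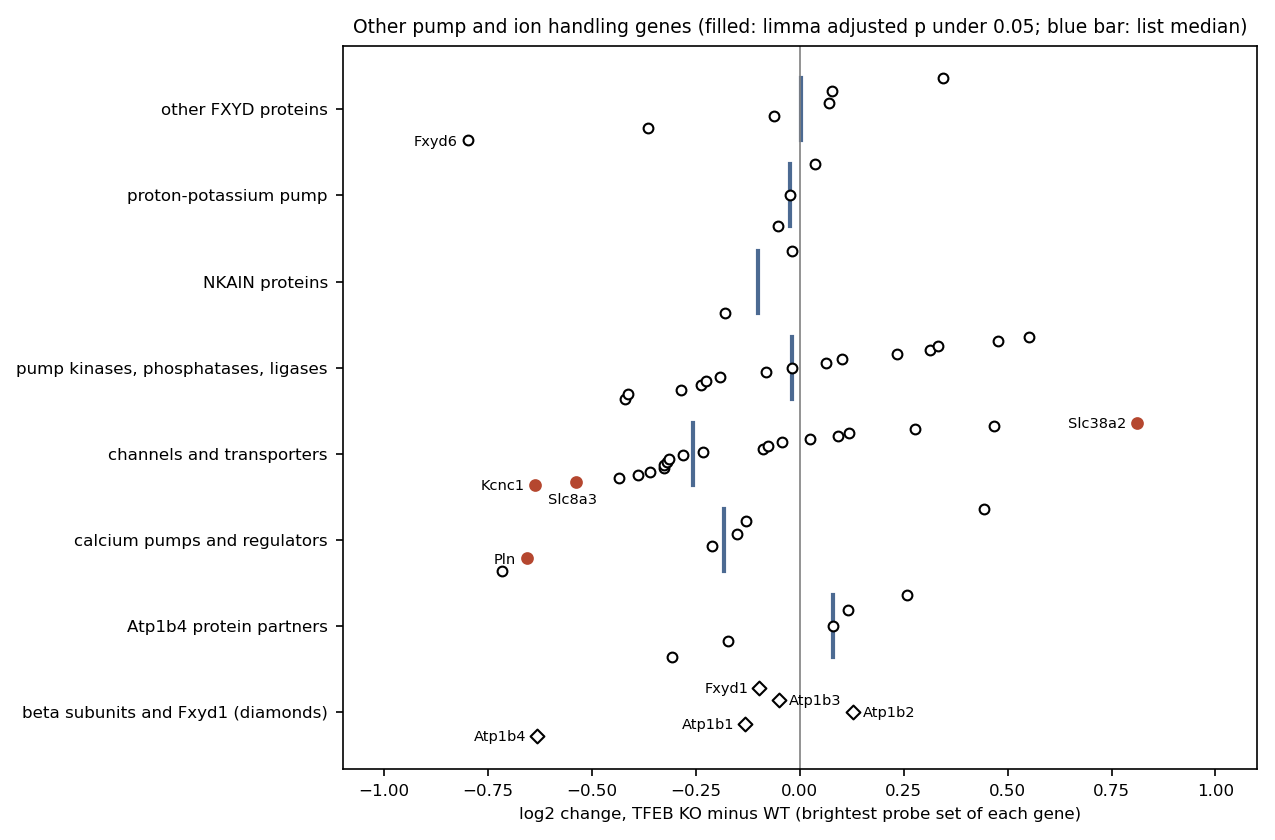
Log2 change, TFEB KO minus WT (x axis), of the brightest probe set of each gene, by list, with filled circles for genes at an adjusted p under 0.05 from limma, blue bars for list medians and diamonds for the beta subunits and Fxyd1. Of the genes outside the members, Kcnc1, Slc8a3 and Pln are called lower and Slc38a2 higher, and the height of a point within a list has no meaning.

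Of the calcium pumps and their regulators, 6 of 9 were measured, with a median of -0.18. Pln, or phospholamban, the inhibitor of the calcium pump of slow and heart muscle, read 5.33, 5.55 and 5.33 in TFEB KO arrays, against 6.09, 6.12 and 5.98 in WT arrays. It fell by 0.66 (standard error 0.10, adjusted p = 0.027), while its dimmer probe sets lay at -0.31 and -0.32 (adjusted p = 0.20 and 0.19). These 4 calls rest on all arrays together. With 1 array left out, Slc38a2 kept an adjusted p under 0.05 only without TFEB KO mouse 1 or 2, and the others only without TFEB KO mouse 1. Without TFEB KO mouse 3 or WT mouse 1, 2 or 3, the adjusted p of Slc38a2 was 0.060 to 0.095. Without TFEB KO mouse 2 or 3 or any WT mouse it was 0.082 to 0.14 for Kcnc1, 0.099 to 0.14 for Slc8a3 and 0.055 to 0.12 for Pln. Slc8a3 also missed the threshold with arrays shifted to 1 common 75th percentile (adjusted p = 0.051). At 1.45-fold lower, it was also lost where at least 1.5-fold was asked for.

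The genes reported as nuclear partners of the Atp1b4 protein or as downstream of it did not pass the test. Snw1 is the transcriptional coregulator that BetaM binds. With Smad7, Smad3, Tgfb1 and Myod1 it gave 5 of 5 measured genes and a median of 0.080. Of the 5, limma called 0, and 0 had an unadjusted p under 0.05. Over all genes, 0.702% were called lower and 0.871% higher. Of all probe sets, 9.40% were lower and 7.81% higher at that unadjusted p. Smad3, a mediator of TGF-beta signaling, lay at -0.31 (adjusted p = 0.42), and Smad7, its inhibitory counterpart, at -0.17 (adjusted p = 0.43).

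The genes whose brightest probe sets were most like Atp1b4 over the 6 arrays, by Pearson correlation among 12392 genes, were Gsta4 (r = 0.999), Mto1 (0.988), Slc27a1 (0.987), Coq6 (0.987) and Cep89 (0.986). Gsta4 encodes a glutathione transferase that clears lipid peroxidation products, Mto1 a modifier of mitochondrial tRNA, Slc27a1 a fatty acid transporter and Coq6 an enzyme of coenzyme Q synthesis. Gsta4 read 7.87, 8.07 and 8.06 in TFEB KO arrays, against 8.28, 8.41 and 8.22 in WT arrays. Like Atp1b4 it was lowest in TFEB KO mouse 1 and highest in WT mouse 2, but its change was smaller, at -0.30. The most opposite genes were Gal (-0.992), Smarcd2 (-0.989), Dynlt3 (-0.986), Ifnb1 (-0.983) and Rps6ka3 (-0.983). Gal, the neuropeptide galanin, read 5.80, 5.42 and 5.36 in TFEB KO arrays, against 4.99, 4.74 and 5.01 in WT arrays. With so few arrays and so many genes, correlations of this size are a description only. Among the members, 3 Atp1b1 probe sets (1418453_a_at, 1423890_x_at and 1451152_a_at) followed Atp1b4 at r = 0.86, 0.86 and 0.85, and Fxyd1 at 0.78. The brightest Atp1b1 probe set was at 0.63, Atp1b3 at 0.45, and the Atp1b2 probe sets at -0.66 and 0.70.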

How the data were processed

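Expression in the muscle of 3 TFEB KO and 3 WT mice was measured with Affymetrix arrays, 1 per mouse. The authors deposited RMA values on the log2 scale, and the submitters' processing notes name RMA and the R package affy with no version. RMA removes background, equalizes the distributions of the arrays and reduces each probe set to 1 value, so a shift shared by most genes would largely be removed.

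Of 22690 probe sets, 64 controls were left out and 22626 entered 1 two-sided limma fit (limma 3.58.1 under R 4.3.3, lmFit then eBayes). Benjamini-Hochberg adjustment ran over all of them, and the threshold was 0.05. Of these, 20380 name 1 gene, 691 several and 1555 none in the platform annotation, and 20351 of the 20380 were found by Entrez ID in the RefSeq table, which changed 0 symbols. A gene with several probe sets outside the members was judged on the brightest. Standard errors of the change of a probe set come from the limma fit, which draws each variance towards that of all probe sets. Those of Atp1b4 against a comparator come from the SDs of both genotypes, with no such step. A group of 3 arrays against 3 cannot go below p = 0.10 in an exact permutation test, so none was used. Depth does not apply to arrays, and the small number of mice limits the precision.

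The members and gene lists were chosen with earlier results of these data known. All probe sets of the members were named, with up to 4 called genes per list or the 2 with the smallest p, and the 5 genes most and least like Atp1b4. The same rule named the slow and perinatal fiber markers, while Ckm, Acta1 and Mylpf are examples from outside it. Slc6a8, also from outside it, is named for its dimmer probe set. The remaining marker lists are given as counts and means. Upstream sequences are the 250 bases before the start in the RefSeq table of GRCm38.p6, searched on both strands for the 4 motifs the report spells out, of which CANNTG takes in CACGTG. Atp1b2 was not matched.

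The fit was tested on simulated data. As alternatives, quantile normalization was run once more, arrays were shifted to 1 common 75th percentile, and probe sets under the 25th percentile of brightness were dropped. Other fits used robust moderation with a trend, weights per array, a block for the replicate number, or 1 array fewer. Further ones averaged the probe sets of each gene, used Student's t-test, or asked for at least 1.5-fold. This t-test is called the methods' t-test because the general statistical section of the study names it, but the test used for the arrays is not named there. Figures were drawn with matplotlib 3.10.9 on NumPy 2.4.6, and pandas 2.3.3 (Python 3.11.15) read the tables.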

Additional observations from a re-analysis of the deposited data

How the results depend on the processing

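The Atp1b4 change stayed below 0 in all 11 alternatives that give it a value, at -0.73 (without WT replicate 3) to -0.49 (without TFEB KO replicate 1), and so did its difference from the other beta subunits, at -0.68 to -0.49. The count of member probe sets past the test was 0 in all 14 alternatives, the methods' t-test among them. The Atp1b2 change turned to -0.046 with the mean of its probe sets, against 0.13 on the brightest. Over all probe sets, 361 passed the test, against 21 (without WT replicate 1) to 438 (without TFEB KO replicate 1) with 1 array left out, and 44, 93, 60 and 80 without TFEB KO replicate 2, TFEB KO replicate 3, WT replicate 2 and WT replicate 3. The methods' t-test after adjustment called 1 probe set. Of the other pump and ion handling genes, 4 passed, against 0 (without TFEB KO replicate 3 or any WT replicate) to 5 (without TFEB KO replicate 1), and 1 without TFEB KO replicate 2. The same count was 7 with trended and robust moderation, 7 with probe sets averaged per gene and 0 with the methods' t-test, and the cause was not tested. Fxyd6 and Ppp1ca also passed with a second quantile normalization, and Pln was lost with the mean of its probe sets (adjusted p = 0.055).

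With the replicate number as a block, 297 probe sets and 2 of the ion handling genes (Slc38a2 and Pln) passed, while Kcnc1, Slc8a3 and Myh3 did not (adjusted p = 0.054, 0.067 and 0.076). The deviations of same-numbered arrays correlated at 0.088, 0.048 and 0.27, and 4 of 6 arrays were closest to their own number. These values do not settle whether arrays of the same number belong together. The labels give only a replicate number, so the main fit did not treat them as pairs. The standard errors of the member changes in the limma fit ran between 0.090 and 0.17. The largest member change, -0.63 for Atp1b4, had a standard error of 0.16 with 3 mice per genotype. As the members were chosen on this contrast, nothing is read from their adjusted p.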
